A study of Rattus norvegicus with 24 samples.

Results

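The 5p arms of 5 rat microRNAs (miRNAs), rno-miR-34a-5p, rno-miR-34b-5p, rno-miR-34c-5p, rno-miR-449a-5p and rno-miR-449c-5p, were examined in the lung after inhalation of hexanal. They were chosen by name from the 719 miRNAs of an Agilent rat miRNA array, as a family that shares 1 seed and is known from ciliated airway cells and from the p53 pathway. All 5 of the 5 were among the 283 miRNAs that were detected well enough to be tested. Lung tissue of 24 Fischer-344 rats, an inbred strain, gave the total RNA, which was labelled with Cy3 and hybridised to 1 array per rat. The control group inhaled filtered clean air, and the other groups inhaled hexanal, a volatile aldehyde, at 600, 1000 or 1500 ppm for 4 h per day on 5 days per week over 5 weeks. Each group held 6 rats, 3 males and 3 females, obtained at 7 to 8 weeks of age, and all rats shared the strain and the schedule. Doses carry the unit ppm in the sample titles but milligrams per cubic metre in the protocol text, so ppm serves only as the name of a group. Because whole lung was measured, fewer ciliated cells and less RNA per cell cannot be told apart.

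A miRNA guides silencing proteins to messenger RNAs that pair with its seed, the stretch near its 5′ end, and miRNAs with the same seed can act on overlapping targets. The miR-34 genes are known as direct targets of p53, the transcription factor that answers DNA damage, and miR-34a is made in many cell types. The miR-34b/c and miR-449 clusters are known for their high levels in multiciliated cells, which line the airways and move mucus, where they help a cell to leave the cell cycle and to build its cilia.

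The mature sequences show what the 5 arms share and where they part. They are given 5′ to 3′ from the RefSeq table of the assembly GRCr8, which held all 5 names, with the seed (bases 2 to 8) in capitals.
rno-miR-34a-5p: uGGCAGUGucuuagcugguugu
rno-miR-34b-5p: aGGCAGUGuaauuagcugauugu
rno-miR-34c-5p: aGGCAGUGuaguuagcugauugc
rno-miR-449a-5p: uGGCAGUGuauuguuagcuggu
rno-miR-449c-5p: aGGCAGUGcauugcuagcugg
All 5 carried the same seed, which stood in 5 of the 693 mature rat names of the table (0.722%). Compared base by base from the 5′ end without gaps, miR-34b-5p and miR-34c-5p differed at 2 of 23 bases. The arms miR-449a-5p and miR-449c-5p differed at 3 of 21 bases, and miR-34a-5p differed from miR-34b-5p at 11 of 22 bases. The count of 11 depends on the rule without gaps. These 2 arms differ in length (22 and 23 bases) and hold a like stretch at shifted places after the seed. The hairpin of Mir34a lay on chromosome 5 (chr5:165815952-165816053, plus strand). Those of Mir34b (chr8:60306609-60306692) and Mir34c (chr8:60306091-60306167) lay on the minus strand of chromosome 8, with 441 bases between them. Mir449c (chr2:46402375-46402473) and Mir449a (chr2:46403910-46404000) lay on the plus strand of chromosome 2, 1436 bases apart. The 5 arms therefore came from 3 places in the genome. Whether a probe tells arms apart that differ at 2 or 3 bases was not tested, so the values of miR-34b-5p with miR-34c-5p, and of miR-449a-5p with miR-449c-5p, may share signal. Shared signal was not tested for the other pairs of arms either.

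The 3p arms, cut from the other side of the same hairpins, carry other seeds and are shown because 3 of them were measured beside the 5p arms.
rno-miR-34a-3p: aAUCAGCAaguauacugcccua
rno-miR-34b-3p: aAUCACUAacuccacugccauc
rno-miR-34c-3p: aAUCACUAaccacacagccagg
The 3p arms of miR-34b and miR-34c differed at 5 of 22 bases, more than their 5p arms did.

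A level is given as log2 of the scaled intensity, so a difference of 1 is a doubling, and levels of different miRNAs are not compared because their probes differ. The arms miR-34a-5p, miR-34b-5p, miR-34c-5p and miR-449a-5p were well above background on 24 of 24 arrays with 2 of 2 probes each. The 2 probes ran together over the arrays for miR-34a-5p, miR-34b-5p and miR-34c-5p (Pearson's r of 0.881, 0.985 and 0.845). Those of miR-449a-5p did so less closely (0.592). In contrast, miR-449c-5p was above background on 13 of 24 arrays and with 1 of its 4 probes, and its value sat at the floor of 3.50 on 6 arrays. Its values have no order at the floor, so its differences are uncertain in size and, in some settings, in sign. Against control at 600 ppm its difference was -0.10, but 0.088 with a halved floor.

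Over the 24 rats the level of miR-34a-5p ranged from 10.01 to 11.14, a 2.19-fold span. The span was 2.75-fold for miR-34b-5p (9.62 to 11.07), 2.93-fold for miR-34c-5p (8.60 to 10.15) and 3.46-fold for miR-449a-5p (6.18 to 7.97). Rats of the same dose group varied more in these arms than in most miRNAs. The within-group SD was 0.412 for miR-449a-5p, 0.368 for miR-34c-5p, 0.349 for miR-34b-5p and 0.306 for miR-34a-5p, which ranked 26th, 35th, 42nd and 60th of 283, while the median SD of all tested miRNAs was 0.183.

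The arrays lay on 3 slides that were not spread evenly over dose and sex. Of the males, the 3 controls, the 3 given 600 ppm and 2 given 1000 ppm were on slide 1, and the remaining 4 (1 given 1000 ppm and all 3 given 1500 ppm) were on slide 2. Of the females, the 3 controls and 1 given 600 ppm shared slide 2 with those males, and the other 8 were on slide 3. The comparisons with control and those that involve sex are therefore given without the slide and, for the main values, also with the slide as a block. Between 221 and 306 miRNAs were above background per array, no spot was saturated, and the p-values measure the spread between rats. Both arms of miR-126a, a marker of the endothelium in which lung is rich, were present, with a summed scaled intensity of 11900 to 17300.

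**Figure D1:**
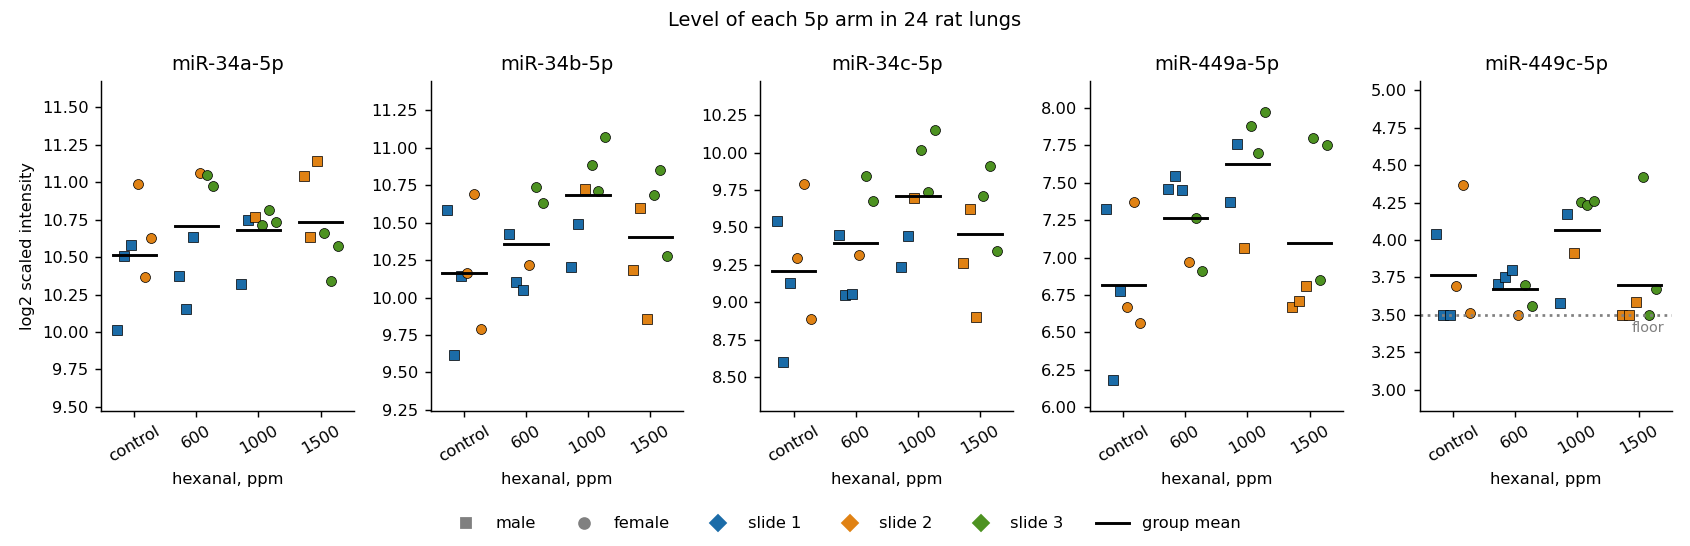
Log2 scaled intensity of each 5p arm (vertical axis, 2.2 log2 units tall in every panel) in the 6 rats of each dose group (horizontal axis), with squares for males, circles for females, colour for the slide and a black bar for the group mean. The group means of miR-449a-5p ran from 6.81 (control) to 7.62 (1000 ppm), and the values of every exposed group overlapped those of control in all 5 arms.

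Whether hexanal changed the family was asked by setting each exposed group against control. Of the 5 arms, 0 passed the threshold (limma, Benjamini-Hochberg adjusted p under 0.05 over 283 miRNAs) at 600, 1000 or 1500 ppm, and 0 of the 283 miRNAs passed (0%) at each dose without the slide and 0% at each dose with it. At an unadjusted p under 0.05, 0, 3 and 0 of the 5 arms were found at 600, 1000 and 1500 ppm, against 5, 17 and 26 of the 283. With the slide as a block these counts were 0, 1 and 0 of the 5 arms, against 23, 24 and 24 of the 283. At 1000 ppm all 5 arms had a positive difference, with a median of 0.51 log2, where the median of all tested miRNAs was -0.01. The 5 arms are not independent of each other. Over the 24 rats Pearson's r was 0.99 for miR-34b-5p with miR-34c-5p and 0.76 for miR-449a-5p with miR-449c-5p. The medians of the 5 arms were 0.19 at 600 ppm and 0.24 at 1500 ppm, and 4 of the 5 were positive at each, with medians of all tested miRNAs of 0.02 and 0.00. These medians of the arms were 0.07, 0.28 and -0.01 for 600, 1000 and 1500 ppm when the slide was a block.

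The largest of these differences was that of miR-449a-5p, an arm known to be made by airway epithelium as cilia form. Its level in control had a lowest value of 6.18, a median of 6.72 and a highest of 7.37. The values were 6.91, 7.36 and 7.55 at 600 ppm, and 7.06, 7.73 and 7.97 at 1000 ppm. At 1500 ppm they were 6.67, 6.83 and 7.80. All 6 rats at 600 ppm and all 6 at 1000 ppm lay above the control mean, and 5 of 6 at 1000 ppm lay above the highest control, while at 1500 ppm 3 of 6 lay above the mean. Male 11 at 1000 ppm (7.369) was all but level with the highest control, female 22 (7.3676). The difference from control at 1000 ppm was 0.81 ± 0.23 (log2, SE), or 1.75-fold, with a limma adjusted p of 0.232, and it did not pass the threshold. Its 2 probes gave 0.81 each. Differences at 600 and 1500 ppm were 0.45 ± 0.23 (adjusted p = 0.996) and 0.29 ± 0.23 (adjusted p = 0.594). With the slide as a block the differences at 600, 1000 and 1500 ppm were 0.30 ± 0.22, 0.63 ± 0.23 and 0.20 ± 0.23 (limma adjusted p of 0.778, 0.496 and 0.849). Within the males of slide 1 the difference at 1000 ppm was 0.80 (2 rats against 3, limma adjusted p = 0.807).

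The arms of the chromosome 8 cluster, miR-34b-5p and miR-34c-5p, which restrain the cell cycle and help cilia to form, had like differences. The lowest, median and highest level of miR-34b-5p were 9.62, 10.16 and 10.69 in control. At 1000 ppm they were 10.21, 10.72 and 11.07, with 6 of 6 rats above the control mean and 4 of 6 above the highest control. The difference was 0.52 ± 0.19 (log2, SE), or 1.43-fold, with a limma adjusted p of 0.453. It was 0.31 ± 0.18 with the slide as a block (adjusted p = 0.578). At 600 ppm the levels of miR-34b-5p ran from 10.05 to 10.74 (median 10.32) and at 1500 ppm from 9.86 to 10.85 (median 10.44).

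For miR-34c-5p the lowest, median and highest level were 8.60, 9.21 and 9.79 in control and 9.24, 9.71 and 10.15 at 1000 ppm. All 6 rats at 1000 ppm lay above the control mean, but 2 of 6 above the highest control. The difference was 0.51 ± 0.20 (log2, SE) with a limma adjusted p of 0.521, and 0.28 ± 0.17 with the slide as a block (adjusted p = 0.627). At 600 ppm its levels ran from 9.05 to 9.84 (median 9.38) and at 1500 ppm from 8.90 to 9.91 (median 9.48). The differences at 1500 ppm were 0.24 for miR-34b-5p and 0.25 for miR-34c-5p, and with the slide as a block they were -0.01 and -0.05.

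The p53 target miR-34a-5p showed the smallest difference at 1000 ppm among the 5 arms. Its control levels lay between 10.01 and 10.99 (median 10.54) and those of the 600 ppm group between 10.15 and 11.06 (median 10.80). The 1000 ppm group lay between 10.32 and 10.81 (median 10.74) and the 1500 ppm group between 10.34 and 11.14 (median 10.65). All 4 groups overlapped, and 4, 5 and 5 of 6 exposed rats at 600, 1000 and 1500 ppm were above the control mean. Differences from control were 0.19, 0.17 and 0.22 at 600, 1000 and 1500 ppm, each with an SE of 0.17 and with limma adjusted p of 0.996, 0.974 and 0.589. With the slide as a block they were 0.25, 0.18 and 0.07 (limma adjusted p of 0.689, 0.691 and 0.928). None of the 6 rats at 1000 ppm, and 2 of 6 at each of the other doses, lay above the highest control.

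The arm nearest the background, miR-449c-5p, was above background in 3 of 6 control rats. The count was 3 of 6, 6 of 6 and 1 of 6 in the 600, 1000 and 1500 ppm groups. Its control levels spread from the floor of 3.50 to 4.37 (median 3.60), and the 600 ppm group reached 3.80 (median 3.70). The 1000 ppm group lay between 3.58 and 4.26 (median 4.21), and the 1500 ppm group between the floor and 4.42 (median 3.54). All 3 exposed groups overlapped control. Differences from control were -0.10, 0.30 and -0.07 (log2, each with an SE of 0.16), with limma adjusted p of 0.996, 0.636 and 0.863. With the slide as a block they were -0.17, 0.19 and -0.18 (limma adjusted p of 0.848, 0.714 and 0.797). Without the block, the difference at 1000 ppm was -0.09 when normexp was run on the median spot brightness. This setting changes both the intensity measure and the background correction.

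**Figure D2:**
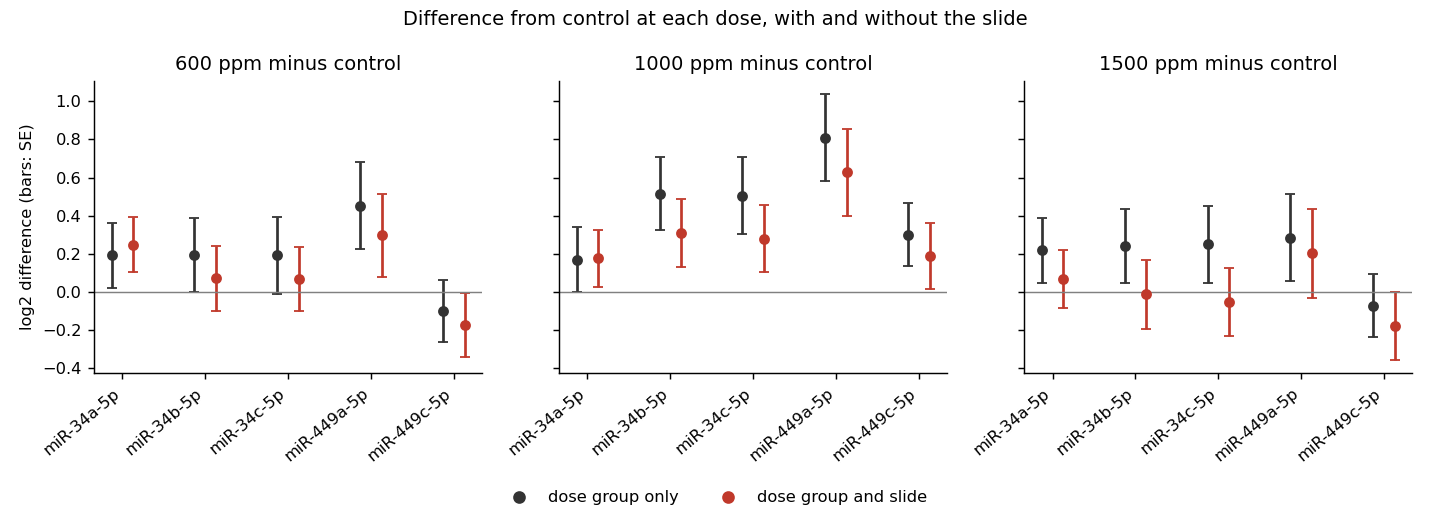
Log2 difference of each exposed group from control (vertical axis) for the 5 arms (horizontal axis) at 600, 1000 and 1500 ppm, with the standard error as bars, from the fit with dose group alone (black) and with the slide added (red). At 1000 ppm miR-34b-5p stood at 0.52 without and 0.31 with the slide, miR-34c-5p at 0.51 and 0.28 and miR-449a-5p at 0.81 and 0.63, and at 1500 ppm miR-34b-5p and miR-34c-5p stood at -0.01 and -0.05 with the slide.

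Neighbouring doses were also compared. Between 1000 and 600 ppm, 0 of the 5 arms and 0 of 283 miRNAs passed (0%), and between 1500 and 1000 ppm likewise 0 of 5 and 0 of 283 (0%). The F test for any dose and the linear trend with dose each gave 0 of 5 and 0 of 283 (0% and 0%). At an unadjusted p under 0.05 there were 7, 16, 15 and 29 of 283 in these 4 tests, of which 1, 2, 1 and 0 were family arms. The order of the group means of miR-449a-5p was 1000 ppm (7.62), 600 ppm (7.27), 1500 ppm (7.10) and control (6.81). From 600 to 1000 ppm it was 0.36 ± 0.23 higher and from 1000 to 1500 ppm 0.53 ± 0.23 lower (log2, SE, limma adjusted p of 0.992 and 0.596). Inside slide 3, which held females alone, miR-449a-5p was 7.26 and 6.91 in the 2 rats at 600 ppm and 7.88, 7.70 and 7.97 in the 3 at 1000 ppm. The values did not overlap there, with a difference of 0.76 ± 0.14 (SE, limma adjusted p = 0.537). Inside slide 1, which held males alone, the same doses differed by 0.08 ± 0.13. On slide 3 miR-449c-5p was well above background in all 3 rats at 1000 ppm (4.24, 4.25 and 4.26) and in 0 of the 2 at 600 ppm. The size of its difference there is therefore uncertain. In limma 0 of 283 miRNAs passed in either of these within-slide comparisons.

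The doses of 1500 and 1000 ppm met within 1 sex on slide 2 (males) and on slide 3 (females). In the females of slide 3, 3 against 3, miR-449a-5p differed by -0.38 ± 0.28, miR-34b-5p by -0.29 ± 0.18, miR-34c-5p by -0.31 ± 0.18 and miR-34a-5p by -0.23 ± 0.09 (log2, SE, limma adjusted p of 0.637 to 0.751), and none passed. On slide 2 the 1000 ppm side was male 13 alone, so the differences of the same arms there, -0.33, -0.51, -0.43 and 0.17, are values with no test.

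Markers of other cell types were read beside the family. At 1000 ppm the miRNAs of heart and skeletal muscle also had positive differences. Of the 6 listed, 4 (miR-1-3p, miR-133a-3p, miR-133b-3p and miR-499-5p) could be tested. All 4 were positive at 1000 ppm, with a median of 0.99, or 0.62 with the slide as a block, and 0 passed the threshold. Their summed scaled intensity had a median of 215 in control (175 to 410), 284 in the 600 ppm group (191 to 602), 555 in the 1000 ppm group (213 to 1370) and 235 in the 1500 ppm group (145 to 1210). By slide the medians were 317, 193 and 630 on slides 1, 2 and 3. The cardiac miR-208a-3p and the skeletal muscle miR-206-3p were not above background on enough arrays to be tested. Of 10 miRNAs of other epithelium, such as the miR-200 family and miR-205, 8 were positive at 1000 ppm with a median of 0.08 and 0 passed, and their summed intensity was 4290 to 4620 in control and 4400 to 5300 at 1000 ppm. At 600 ppm 10 of these 10 were positive (median 0.12, or 0.13 with the slide as a block). With the block 5 of them had an unadjusted p under 0.05 in limma, against 23 of the 283. At 1500 ppm 6 were positive and 4 negative with the block, and 0 passed at any dose. The part of these cell markers in the levels of the 5 arms was not tested.

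For the remaining lists the median difference at 1000 ppm was -0.05 for 4 of 5 leukocyte miRNAs that could be tested, -0.07 for 2 endothelial miRNAs, 0.07 for 2 smooth muscle miRNAs and 0.28 for 2 of 3 erythroid miRNAs. With the slide as a block these were -0.19, -0.02, 0.12 and 0.24. All 4 leukocyte miRNAs were then lower at each dose, with medians of -0.26 at 600 ppm and -0.20 at 1500 ppm. At 600, 1000 and 1500 ppm 3, 2 and 2 of them had an unadjusted p under 0.05 in limma, against 23, 24 and 24 of the 283. The summed intensity of the erythroid miRNAs was 1080 to 3150 in control and 1790 to 2660 at 1000 ppm. None of these miRNAs passed the threshold at any dose, without or with the slide as a block. The p53 pathway list held 12 other miRNAs that p53 is known to induce or to help process, such as miR-192-5p and miR-194-5p, of which 10 could be tested and 4 also stand in the smooth muscle or epithelial list. In limma 0 of the 10 passed at any dose, and their median differences were 0.08, 0.02 and -0.01 for 600, 1000 and 1500 ppm. At 1500 ppm 5 of the 10 were higher and 5 lower, and 1 had an unadjusted p under 0.05.

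Without the slide in the fit, 2 of the 5 arms passed the threshold between males and females, and neither passed with the slide as a block. The level of miR-34c-5p ran from 8.60 to 9.69 in 12 males (median 9.25) and from 8.89 to 10.15 in 12 females (median 9.72). Male minus female, with dose group in the fit, was -0.39 ± 0.12 (log2, SE) and passed in limma (adjusted p = 0.0142). For miR-34b-5p the levels ran from 9.62 to 10.73 in males (median 10.19) and from 9.79 to 11.07 in females (median 10.69), and the difference of -0.31 ± 0.12 also passed (adjusted p = 0.0453). The ranges of the sexes overlapped widely in both arms. Of all 283 miRNAs, 124 passed (43.8%), so the share among the 5 arms was near the background. The other 3 arms gave -0.17 (miR-34a-5p), -0.21 (miR-449a-5p) and -0.18 (miR-449c-5p) and did not pass. For miR-449a-5p the value was -0.66 ± 0.35 with the slide as a block (limma adjusted p = 0.339) and -0.50 with its brightest probe alone, where it passed (adjusted p = 0.00459). Of the other lists, both endothelial miRNAs and 1 each of the smooth muscle, erythroid and epithelial miRNAs were higher in males past the threshold. Lower past it were 2 leukocyte miRNAs and 1 epithelial miRNA, and 0 striated muscle miRNAs passed either way. The p53 list, which shares 4 of its 10 tested miRNAs with these lists, had 1 higher and 1 lower, and with the slide as a block 0 miRNAs of any list passed in limma, where 1 each of the endothelial, leukocyte and p53 miRNAs had an unadjusted p under 0.05. Their part in the sex difference of the 2 arms was not tested.

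The sex calls were lost with the slide as a block. In that fit sex rests on slide 2, the only slide that held both sexes, and the SE of both arms rose from 0.12 to 0.29. Male minus female was then 0.15 ± 0.29 for miR-34b-5p and 0.07 ± 0.29 for miR-34c-5p (limma adjusted p of 0.788 and 0.891), 0 of the 5 arms passed, and 10 of 283 miRNAs did (3.53%). On slide 2, which held 4 males and 4 females, the differences were 0.12 for miR-34b-5p and 0.05 for miR-34c-5p, and 0 of the 5 arms but 20 of the 283 miRNAs passed there. Those males were given 1000 or 1500 ppm and those females clean air or 600 ppm. Sex and dose therefore cannot be told apart on slide 2, nor sex and slide on slides 1 and 3. The call of miR-34b-5p was also lost when any 1 of 15 of the 24 rats was left out (adjusted p up to 0.0824), and that of miR-34c-5p was kept without each rat in turn (adjusted p up to 0.0305). The difference of miR-34c-5p did not pass with normexp (-0.37) or with the deposited series table (-0.22).

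The dose by sex interaction asked whether the difference from control depended on the sex. One of the 5 arms, miR-34a-5p, passed the F test of 3 terms (F = 6.10, limma adjusted p = 0.0233), beside 71 of 283 miRNAs (25.1%). In control males miR-34a-5p was 10.01, 10.50 and 10.58 and in males at 1500 ppm it was 10.64, 11.04 and 11.14, so that these males did not overlap. In control females it was 10.37, 10.63 and 10.99 and in females at 1500 ppm 10.34, 10.58 and 10.66. The difference at 1500 ppm was 0.57 ± 0.18 in males (log2, SE, limma adjusted p = 0.0145), where 102 of 283 miRNAs passed (36%), and -0.13 ± 0.18 in females (adjusted p = 0.758). With the deposited series table, which is not scaled between arrays, the value in males was -0.09. The interaction at 1500 ppm alone was 0.71 ± 0.25 (limma adjusted p = 0.0355), and 100 of 283 miRNAs passed (35.3%).

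All 3 males at 1500 ppm lay on slide 2 and all 3 control males on slide 1. With the slide as a block, the difference of miR-34a-5p at 1500 ppm in males was 0.34 ± 0.33 (limma adjusted p = 1.00), the interaction at 1500 ppm was 0.43 ± 0.47 (adjusted p = 0.868) and the F test gave 1.69 (adjusted p = 0.823). In these 3 tests 0 of 283 miRNAs passed (0%, 0% and 0%). Within the sexes this fit links the slides through 2 rats, male 13 at 1000 ppm and female 26 at 600 ppm. Without the slide, the F test of miR-34a-5p was lost when male 7 at 600 ppm, male 16, male 18 or female 37 at 1500 ppm was left out (adjusted p of 0.0509, 0.0582, 0.0759 and 0.0629). The difference in males at 1500 ppm was lost without control male 1 (0.40, adjusted p = 0.112), male 16 (0.52, adjusted p = 0.0521) or male 18 (0.47, adjusted p = 0.0775), and the interaction at 1500 ppm was lost without control male 1, control female 21, control female 23, male 16, male 18 or female 37 (adjusted p of 0.0533 to 0.105).

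**Figure D3:**
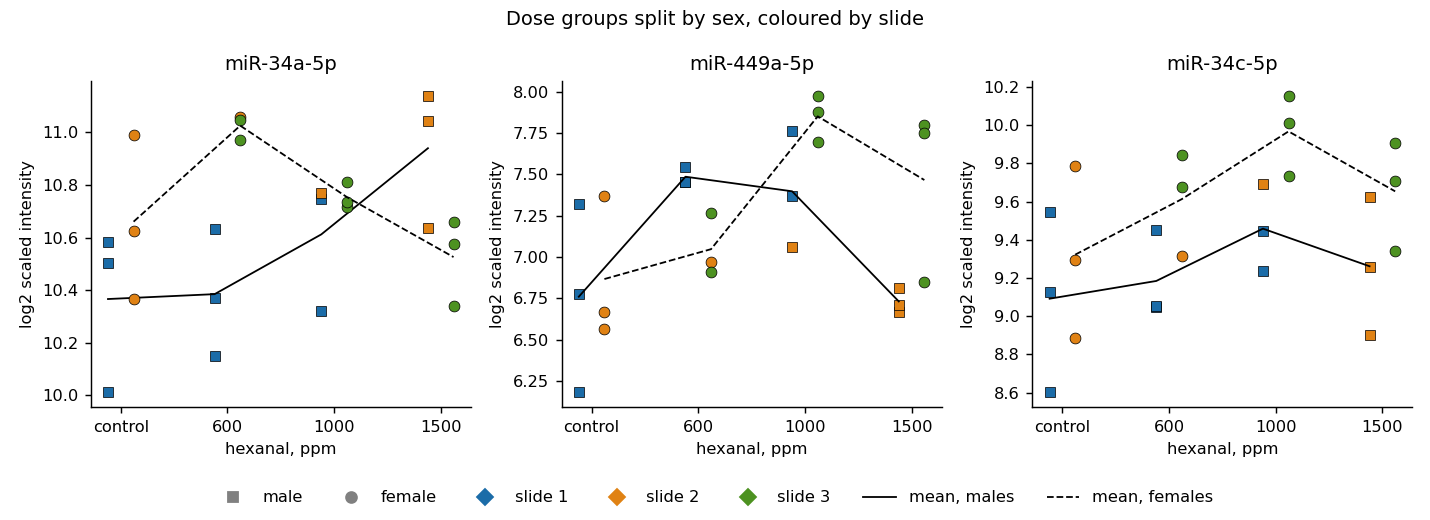
Log2 scaled intensity (vertical axis) of miR-34a-5p, miR-449a-5p and miR-34c-5p in males (squares, solid line through the means) and females (circles, dashed line) of each dose group (horizontal axis), coloured by slide. For miR-34a-5p the mean of the males was 10.37 in control and 10.94 at 1500 ppm while that of the females was 10.66 and 10.53, and the control males (slide 1) and males at 1500 ppm (slide 2) do not share a slide.

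Dose was also tested within each sex. In males 2 of the 5 arms passed the F test for any dose, miR-34a-5p (F = 4.51, limma adjusted p = 0.046) and miR-449a-5p (F = 4.47, adjusted p = 0.0472), beside 100 of 283 miRNAs (35.3%). In females 0 of the 5 arms and 0 of 283 passed (0%), and miR-449a-5p had the highest F of the 5 there (5.32, adjusted p = 0.186). Both male calls were lost with the slide as a block, where 0 of 283 miRNAs passed (0%). With it F was 0.393 for miR-34a-5p (adjusted p = 1.00) and 3.44 for miR-449a-5p (unadjusted p = 0.0418, adjusted p = 0.977 in limma). In that fit the differences of miR-449a-5p from control in males were 0.73 ± 0.27 at 600 ppm and 0.80 ± 0.31 at 1000 ppm (SE). Neither passed (limma adjusted p of 0.551 and 0.977). Without the block, the call of miR-34a-5p was also lost when any 1 of 15 of the 24 rats was left out and that of miR-449a-5p when any 1 of 17 was (adjusted p up to 0.227 and 0.0935).

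Among males miR-449a-5p was 6.18, 6.78 and 7.32 in the control rats and 7.45, 7.46 and 7.55 in those given 600 ppm. The males of the 1000 ppm group had 7.06, 7.37 and 7.76, and those of the 1500 ppm group 6.67, 6.71 and 6.81. The 3 males at 600 ppm lay above all 3 control males, and these 6 rats shared slide 1, where the difference was 0.73 ± 0.28 (SE, limma adjusted p = 0.763). The 3 males at 1500 ppm lay close together, inside the range of the control males, but they were on slide 2 and the control males on slide 1. Their difference from the control males was -0.03 ± 0.27 without the slide and 0.47 ± 0.49 with the slide as a block (SE). Females had 6.56, 6.67 and 7.37 in control and 7.70, 7.88 and 7.97 at 1000 ppm. These 2 groups of females did not overlap, with a difference of 0.98 ± 0.27 (SE, limma adjusted p = 0.0654), and they lay on slides 2 and 3. The interaction F test of miR-449a-5p gave 3.50 (adjusted p = 0.0975) and did not pass. It passed without control male 2 or without female 37 of the 1500 ppm group (adjusted p of 0.0486 and 0.0304), and the difference of the females passed without control female 22 or without female 37 (adjusted p of 0.0344 and 0.033). With the slide as a block the female difference was 0.87 ± 0.49 (limma adjusted p = 0.964) and the interaction F was 1.20 (adjusted p = 0.863).

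The same split by sex was made for miR-34b-5p and miR-34c-5p. In females miR-34b-5p was 9.79, 10.17 and 10.69 in the control rats and 10.71, 10.88 and 11.07 in the 1000 ppm group, which did not overlap. The difference was 0.67 ± 0.26 (SE, limma adjusted p = 0.16), and 0 of 283 miRNAs passed in this comparison. These females shared no slide, and with the slide as a block the difference was 0.21 ± 0.46 (limma adjusted p = 0.979). In males the values were 9.62, 10.15 and 10.59 in the control rats and 10.21, 10.49 and 10.73 in the 1000 ppm group, which overlapped. For miR-34c-5p the female difference at 1000 ppm was 0.65 ± 0.25 (limma adjusted p = 0.174), and 0.20 ± 0.45 with the slide as a block (adjusted p = 0.979). Neither arm passed the interaction test (F of 0.32 and 0.215, adjusted p of 0.863 and 0.911).

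The slide itself was tested beside dose and sex. One of the 5 arms, miR-34a-5p, passed (F = 5.75, limma adjusted p = 0.0249), as did 136 of 283 miRNAs (48.1%). Its levels ran from 10.01 to 10.75 on slide 1 (median 10.44), from 10.37 to 11.14 on slide 2 (median 10.88) and from 10.34 to 11.05 on slide 3 (median 10.73). The call was lost without male 16, male 18 or female 37 of the 1500 ppm group (F of 4.40, 4.25 and 4.27). By contrast miR-449a-5p had its lowest median on slide 2 (6.76, against 7.41 on slide 1 and 7.72 on slide 3), and its F of 3.96 did not pass (adjusted p = 0.0717), though it passed in limma without control male 2, control female 22, male 11 of the 1000 ppm group or female 37 (adjusted p of 0.0174 to 0.0404). Medians of miR-34c-5p were 9.18, 9.30 and 9.79 on slides 1, 2 and 3 (F = 1.63, adjusted p = 0.29).

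Next, the arms were compared with each other over the 24 rats, which gave 10 pairs. The neighbours miR-34b-5p and miR-34c-5p varied together from rat to rat, with Pearson's r of 0.99 and Spearman's rho of 0.99 (permutation p = 1e-05 for each, the smallest that 100000 draws can give, adjusted over the 10 pairs to 1e-04). The neighbours miR-449a-5p and miR-449c-5p had an r of 0.76 and a rho of 0.79 (permutation p of 4e-05 and 3e-05, adjusted 2e-04 and 0.00015). Across the clusters, the 4 pairs of a miR-34b/c arm with a miR-449 arm had r from 0.55 to 0.60 and rho from 0.49 to 0.51. All 4 passed by permutation (adjusted p of 0.00746 to 0.00982 for r and 0.0275 for rho). The arm miR-34a-5p did not follow them, with r from -0.20 to 0.04 against the other 4 arms (adjusted permutation p of 0.496 to 0.88).

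These relations were computed again within the slides. With the mean of each slide removed, r was 0.99 for miR-34b-5p with miR-34c-5p and 0.75 for miR-449a-5p with miR-449c-5p, from 0.50 to 0.54 across the clusters, and from -0.31 to -0.15 for miR-34a-5p. In all, 6 of the 10 pairs passed by r and 3 by rho. Inside slides 1, 2 and 3 (8 rats each) r of miR-34b-5p with miR-34c-5p was 0.99, 0.99 and 0.99 (exact permutation p of 9.92e-05, 0.000322 and 2.48e-05, adjusted 0.000992, 0.00322 and 0.000248). For miR-449a-5p with miR-449c-5p it was 0.69, 0.86 and 0.83 (exact permutation p of 0.052, 0.0134 and 0.0088, adjusted 0.104, 0.067 and 0.044).

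The relation across the clusters held less well. For miR-34b-5p with miR-449a-5p, r was 0.74, 0.67 and 0.09 inside slides 1, 2 and 3 (exact permutation p of 0.0437, 0.067 and 0.812). Without the 2 rats farthest from the median of the first arm, control male 2 and control female 23, its r fell from 0.58 to 0.40 (adjusted permutation p = 0.136), and that of miR-34c-5p with miR-449a-5p fell from 0.55 to 0.34 without control male 2 and female 33 at 1000 ppm (adjusted p = 0.195). These 2 relations did not pass without those rats, and 3 of the 10 pairs passed in that setting. Leaving out any single rat kept the call of miR-34b-5p with miR-449a-5p (r of 0.48 to 0.65, adjusted permutation p up to 0.0445). The r of miR-34c-5p with miR-449a-5p also lost its call without control male 2 alone (0.44, adjusted permutation p = 0.061), the control rat with the lowest miR-34b-5p, miR-34c-5p and miR-449a-5p. With both slide and dose group means removed, 2 of the 10 pairs passed, miR-34b-5p with miR-34c-5p (r = 0.99) and miR-449a-5p with miR-449c-5p (r = 0.81), r across the clusters was 0.37 to 0.46 (adjusted permutation p of 0.0673 to 0.101), and r of miR-34a-5p with miR-34b-5p was -0.48 (adjusted permutation p = 0.0673).

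**Figure D4:**
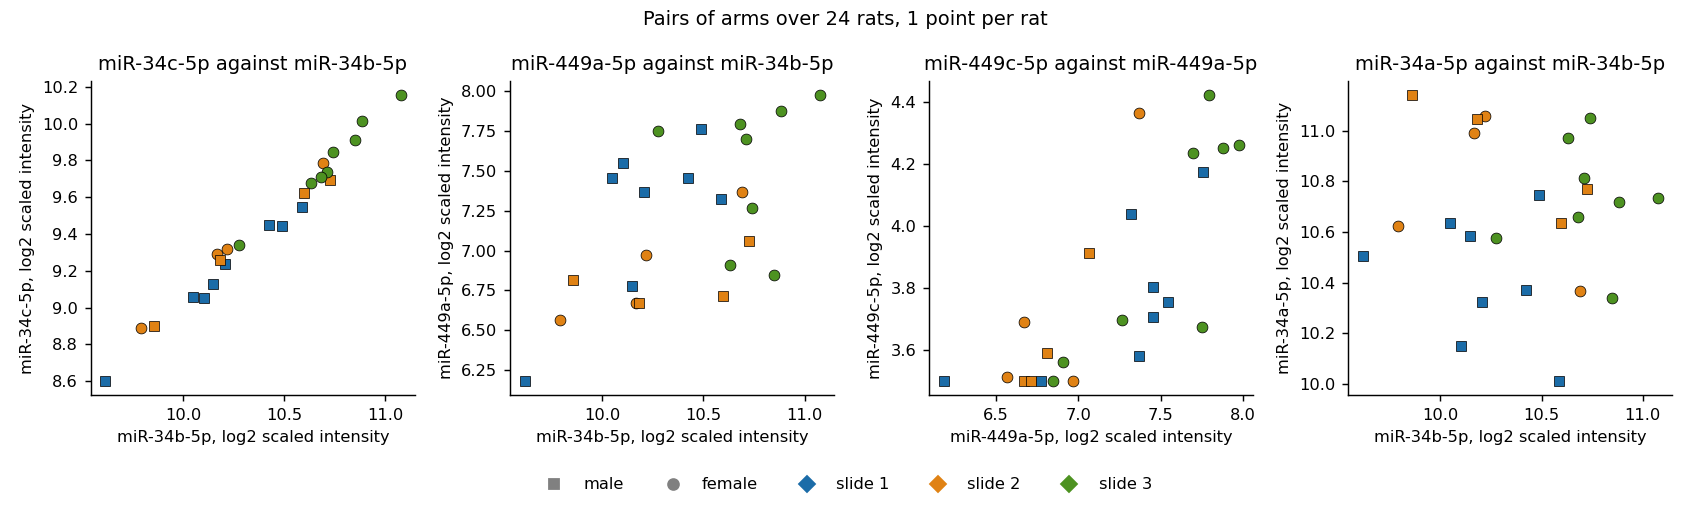
Log2 scaled intensity of 1 arm against another over 24 rats (1 point per rat, squares for males, circles for females, colour for the slide). The points of miR-34c-5p against miR-34b-5p lie close to a line (r = 0.99), those of miR-449a-5p against miR-34b-5p scatter around a rise (r = 0.58), those of miR-449c-5p against miR-449a-5p end at the floor of 3.50 (r = 0.76), and those of miR-34a-5p against miR-34b-5p show no clear slope (r = -0.03).

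The tested miRNAs outside the family were ranked by their likeness to each arm, as Pearson's r over 24 arrays with slide means removed among 278 candidates. These values are descriptions, since all come from the same arrays. Closest to miR-34a-5p was its own other arm, miR-34a-3p (r = 0.95, and 0.87 without removing the slide means), then miR-429, an epithelial miRNA of the miR-200 family (0.62), and miR-30d-5p (0.60). Closest to miR-34b-5p were miR-34b-3p (0.96), miR-34c-3p (0.93) and the basal epithelial miR-205 (0.75), and the same 3 were closest to miR-34c-5p (0.97, 0.94 and 0.74). For miR-449a-5p they were miR-34b-3p (0.56), miR-125b-2-3p (0.51) and miR-34c-3p (0.47), and for miR-449c-5p they were miR-34c-3p (0.57), miR-34b-3p (0.55) and miR-130b-3p (0.53). The 3p arms of the miR-34b/c hairpins, whose letters differ from those of the 5p arms as printed above, thus followed the miR-34b/c 5p arms in these rats, and miR-34a-3p did not follow them (r of -0.18 and -0.15 with miR-34b-5p and miR-34c-5p).

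**Figure D5:**
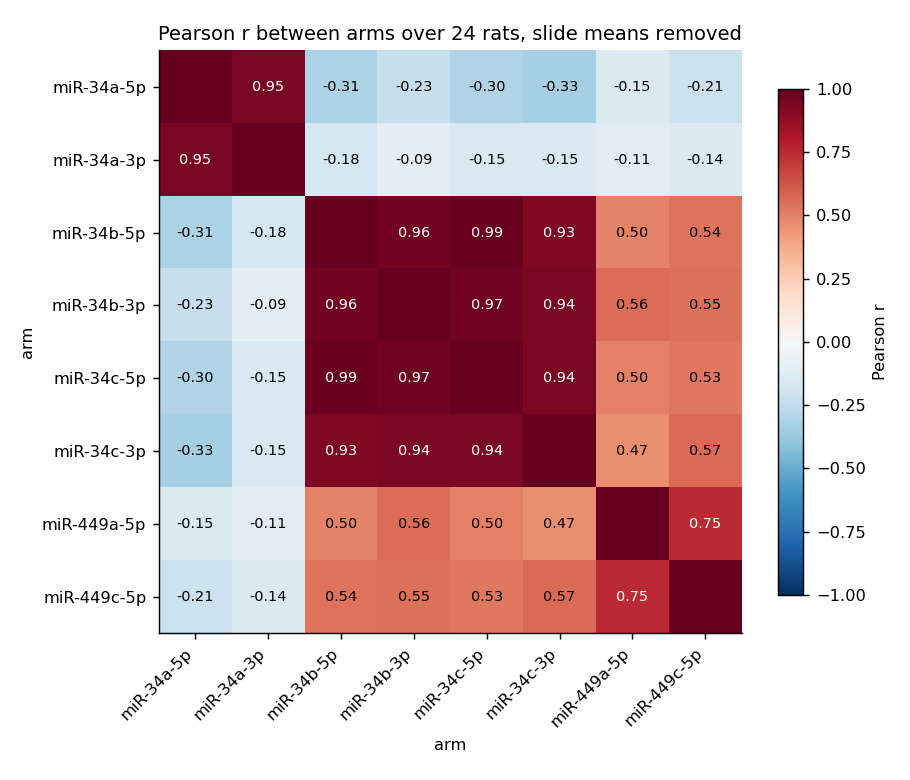
Pearson's r between the 8 tested arms of the family over 24 rats after the mean of each slide was removed (colour and number in each cell, with arms of 1 hairpin side by side on both axes). The arms of miR-34a form a pair of their own (0.95), the 4 arms of miR-34b and miR-34c form a block (0.93 to 0.99), and miR-449a-5p and miR-449c-5p (0.75) stand between 0.47 and 0.57 from that block.

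Of the 3p arms, miR-34a-3p, miR-34b-3p and miR-34c-3p could be tested, and miR-449a-3p and miR-449c-3p were above background on 0 of 24 arrays with 0 of 2 probes each. The level of miR-34b-3p was 5.57 to 6.78 in control (median 6.25) and 6.38 to 7.01 at 1000 ppm (median 6.74), a difference of 0.52 ± 0.19 (log2, SE, limma adjusted p = 0.453). For miR-34c-3p the levels were 4.59 to 5.43 (median 5.00) and 5.10 to 5.75 (median 5.47), a difference of 0.45 ± 0.18 (adjusted p = 0.513). For miR-34a-3p they were 3.76 to 4.46 (median 4.25) and 4.18 to 4.73 (median 4.40), a difference of 0.21 ± 0.16 (adjusted p = 0.901). One probe of miR-34a-3p was above background on 17 of 24 arrays. For miR-34c-3p 2 of 4 probes were kept, and 1 of these was above background on 14 arrays. Both arms thus rest in part on signal near the floor. None of the 3 arms passed, and their differences stood near those of the 5p arms of the same hairpins (0.52, 0.51 and 0.17). With the slide as a block they were 0.28, 0.23 and 0.24.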

How the data were processed

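Lung RNA of 24 rats was hybridised to single-colour rat miRNA arrays. The authors deposited spot intensities from Agilent Feature Extraction 11.5.1.1, which per the file headers had the local background and a spatial trend removed and were left unscaled. The design had 14380 spots, with 5 to 20 spots for each of 1730 probes. The methods of the study describe other arrays. A series matrix, also deposited by the authors as intensity, gave 17256 values, in which every value above 1 (7125 of them) equalled the total gene signal.

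Control spots and outlier spots (3.939%) were left out. Intensities were scaled to the 75th percentile over 394 probes well above background on every array (target 865.336), set to a floor of 11.3147 and logged. Probes well above background on at least 6 arrays were kept (555 probes, 283 miRNAs) and averaged per miRNA. The number of arrays, not read depth, limits the precision. Of all spots, 27.45% to 38.17% per array were well above background. No 2 arrays were identical (r of 0.9778 to 0.9979).

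Tests were two-sided and were run with limma 3.58.1 in R 4.3.3 with version 1.17.8 of data.table, adjusted by Benjamini-Hochberg over 283 miRNAs at a threshold of 0.05. The dose fit had 20 residual degrees of freedom. Correlations were tested with 100000 permutation draws, or exactly over 40320 orders within a slide. Methods were tested on simulated data. Alternatives were other scalings, filters, floors, probe summaries, the series table, a normexp correction (offset 50) of the median brightness, the slide as a block or random block, sex as a covariate, other eBayes options, separate fits and leaving out each array.

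Named miRNAs were the 5 arms, the 3p arms of their hairpins and, for each arm, the 3 tested miRNAs most like it with slide means removed. From the marker lists (other epithelium, endothelium, leukocyte, striated muscle, smooth muscle, erythroid) and the p53 list, up to 5 miRNAs past the threshold in a dose comparison would have been named, and none passed. Other list members are named only to say what a list holds. The arms and lists were chosen with earlier results of these data known. The names miR-155-5p, miR-486 and miR-15a-5p did not match the array. The file headers name the build rn4, while sequences and hairpin positions come from RefSeq on GRCr8, and no coordinates of the files were used.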

Additional observations from a re-analysis of the deposited data

Results flagged for a closer look

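In each dose group the highest and lowest rat of every arm were set against the rest by Dixon's ratio, in which the distance from the extreme rat to its neighbour is divided by the whole range. Of 20 groups, 2 exceeded the 95% critical value for 6 rats, and chance alone gives about 1 in 20. At 1000 ppm miR-34a-5p was lowest in male 11, with a ratio of 0.804 (log2 10.32, the other 5 at 10.76 ± 0.04, SD). In the same group male 11 was also lowest for miR-34b-5p (10.21), miR-34c-5p (9.24) and miR-449c-5p (3.58). At 1500 ppm miR-449c-5p was highest in female 36, with a ratio of 0.811 (log2 4.42, the other 5 at 3.55 ± 0.08, SD), and female 36 was the 1 rat of that group in which it was above background. The other rats were at or near the floor of 3.50, which narrows their spread, so the critical value does not strictly apply to this ratio.

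The response of miR-34a-5p to dose differed between males and females by the interaction test of limma (F = 6.095, adjusted p = 0.0233), with a difference from control at 1500 ppm of 0.57 in 3 males and -0.13 in 3 females. With the slide as a block F was 1.69 (adjusted p = 0.823), and the part of the slide in the difference between the sexes cannot be told apart from that of dose and sex in males at 1500 ppm, none of which shared a slide with a control male.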

How the results depend on the processing

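No paired analysis was possible because the rat numbers are not shared between groups. Over the alternatives other than leaving out a rat, the counts of arms or pairs past the threshold were within 1.5 times the reported count in 139 of 172 cases. The 8 counts reported as 0 (each dose, each pair of neighbouring doses, any dose, the trend and any dose in females) stayed at 0 throughout and make up much of that share. Counts above 0 stayed within that factor less often. This held in 4 of 13 alternatives for sex, 5 of 12 for the interaction, 2 of 12 for any dose in males, 6 of 10 for the slide and 8 of 11 for the pairs. The sex count of 2 was 3 with the brightest probe, where miR-449a-5p also passed, 1 with no filter, the total gene signal, quantile normalization or the percentile over all probes, and 0 with the series table, normexp, the slide as a block or random block, or slide 2 alone. The interaction count of 1 was 0 with quantile normalization, no filter, the total gene signal, the series table, normexp and both slide blocks. The count of 2 for any dose in males was 1 with the percentile over all probes, quantile normalization, a halved floor or the brightest probe, and 0 with no filter, the total gene signal, the series table, normexp and both slide blocks. The slide count of 1 was 0 with no filter or the total gene signal, 2 with normexp and 3 with the series table. The 6 correlated pairs were 2 with slide and dose means removed, 2 with normexp and 3 with the strict filter, which leaves miR-449c-5p out. Leaving out 1 rat gave 1 to 2 arms for sex, 0 to 2 for the interaction, 0 to 2 for any dose in males, 0 to 2 for the slide and 5 to 6 pairs.

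Among values of single arms, 690 of 787 kept their direction and side of the threshold. With the series table the signs of miR-34a-5p at 1500 ppm (-0.033), in males at 1500 ppm (-0.0947), for the interaction at 1500 ppm (-0.123) and for sex (0.0232) were reversed, as were those of miR-34b-5p at 1500 ppm (-0.0156), miR-449c-5p for sex (0.16) and r of miR-34a-5p with miR-34b-5p, miR-449a-5p and miR-449c-5p (0.26, 0.20 and 0.10). With the slide as a block, reversed signs were those of miR-34b-5p and miR-34c-5p at 1500 ppm (-0.0106 and -0.0503) and of miR-34a-5p, miR-34b-5p and miR-34c-5p for sex (0.218, 0.153 and 0.0697). On slide 2 alone, where sex and dose cannot be told apart, the sex values of the same arms were 0.137, 0.124 and 0.0487. With the random block miR-34a-5p for sex was 0.0223 and miR-34c-5p at 1500 ppm -0.0054. With normexp miR-449c-5p was 0.40 at 600 ppm, -0.0925 at 1000 ppm and 0.0451 at 1500 ppm against control, -0.49 for 1000 against 600 ppm and 0.14 for 1500 against 1000 ppm, miR-449a-5p was -0.0317 for 1000 against 600 ppm, and r with miR-449c-5p was 0.13 for miR-34a-5p and -0.12 for miR-34b-5p. With a halved floor miR-449c-5p was 0.088 at 600 ppm, and within the males of slide 1 it was 0.075. For r of miR-34a-5p, values with miR-34b-5p were 0.0818 with the percentile over all probes and 0.10 with the brightest probe, which also gave 0.15 with miR-449a-5p, and values with miR-34c-5p were -0.0777 with quantile normalization, -0.10 with the total gene signal, -0.30 with slide means removed and -0.46 with slide and dose means removed. Leaving out 1 rat gave reversed signs in 4 results, which ranged from -0.103 to 0.0823 (r of miR-34a-5p with miR-34b-5p), -0.0461 to 0.154 (with miR-34c-5p), -0.215 to 0.0489 (miR-449c-5p at 1500 ppm) and -0.151 to 0.0218 (miR-449c-5p at 600 ppm). The cause was not tested. The values of miR-449c-5p at the floor on 6 of 24 arrays have no order, and the uneven slides limit every comparison of sex and of dose within a sex.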
